A study of Homo sapiens with 9 samples.

Results

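Notch receptors, ligands and targets were followed as 10 genes among the 62703 gene identifiers counted in each library. The 10 are the receptors NOTCH1, NOTCH2 and NOTCH3, the ligands JAG1, JAG2 and DLL4, the glycosyltransferase LFNG, and the target genes HES1, HEY1 and NRARP. They were matched by symbol, and all 10 were found. They were chosen by their levels and changes across these same libraries, with earlier results in view, so their values are given as a description. No p-value of a single member is printed. Where a member is said to pass the threshold (adjusted p under 0.05), that too is a description and not support from a test.

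The cells were HepG2, a single human liver cancer line with many features of hepatocytes, so every statement concerns that line alone. Untreated control cells were set beside cells given eliglustat at 20 µM and at 30 µM for 72 h, with 3 RNA-seq libraries in each of the 3 groups. Eliglustat is an inhibitor of glucosylceramide synthase and is used to treat Gaucher disease. The labels give no culture time for the controls, and nothing in them says whether libraries with one treatment were grown separately. The p-values therefore reflect library-to-library spread that may be technical. The series text mentions a further incubation after treatment without saying whether it applied here.

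Each library held between 21103757 and 26782810 counts in genes, and 17623 genes had enough counts to be tested. The 8 hepatocyte markers were each at 1 CPM (a gene's counts relative to the library size, after TMM scaling between libraries) or more in all groups. Their summed level was 30214 to 31244 CPM in controls, 34082 to 34460 CPM at 20 µM and 38568 to 38950 CPM at 30 µM. That sum was carried by APOB, at 27773 CPM at 30 µM and 19950 CPM in controls on average, and of the 8 markers 3 rose and 3 fell at 30 µM against control, with a median log2 change of -0.03. In a bulk sample, fewer cells of a kind and less RNA per cell cannot be told apart.

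Notch receptors are membrane proteins that are cut when a Jagged or Delta-like ligand on a neighbouring cell pulls on them. ADAM proteases and then gamma-secretase release the intracellular domain, which enters the nucleus, joins the DNA-binding protein RBPJ and a Mastermind coactivator, and switches on genes such as those of the HES and HEY families. In liver, signalling from JAG1 to NOTCH2 is known for directing bile duct formation, and mutations in either gene cause Alagille syndrome.

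The start regions of HES1, NOTCH1 and JAG1 are shown because these genes are the target, the receptor and the ligand that differed most between the groups. Each window runs 5′ to 3′ on the gene's strand, from 250 bases before to 50 bases after the RefSeq start on GRCh38.p14, and capitals mark the core motif of RBPJ, TGGGAA or its reverse complement TTCCCA. The HES1 window lies at chr3:194135898-194136197 on the plus strand, the NOTCH1 window at chr9:136545999-136546298 on the minus strand and the JAG1 window at chr20:10673950-10674249 on the minus strand.
HES1: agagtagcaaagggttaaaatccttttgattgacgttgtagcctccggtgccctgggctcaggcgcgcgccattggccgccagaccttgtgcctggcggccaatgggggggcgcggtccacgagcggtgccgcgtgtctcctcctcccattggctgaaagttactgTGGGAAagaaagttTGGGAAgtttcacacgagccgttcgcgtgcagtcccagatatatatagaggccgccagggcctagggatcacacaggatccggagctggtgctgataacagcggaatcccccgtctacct
NOTCH1: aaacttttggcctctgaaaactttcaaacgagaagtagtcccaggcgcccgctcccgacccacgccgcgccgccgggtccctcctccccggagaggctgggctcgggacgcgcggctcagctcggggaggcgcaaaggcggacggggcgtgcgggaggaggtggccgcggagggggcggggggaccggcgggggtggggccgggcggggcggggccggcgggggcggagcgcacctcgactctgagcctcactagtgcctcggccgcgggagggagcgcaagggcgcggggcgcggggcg
JAG1: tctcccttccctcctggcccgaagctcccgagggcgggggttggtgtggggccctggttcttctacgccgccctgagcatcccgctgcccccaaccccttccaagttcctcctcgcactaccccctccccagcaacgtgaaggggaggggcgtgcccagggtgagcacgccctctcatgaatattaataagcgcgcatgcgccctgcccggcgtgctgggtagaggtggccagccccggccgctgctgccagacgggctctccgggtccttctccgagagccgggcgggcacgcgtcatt
The HES1 window held 2 matches on the plus strand, beginning 84 and 70 bases before the start, and the windows of NOTCH1 and JAG1 held 0. RefSeq windows were examined for 9 of the 10 genes, all but HEY1, with 10 windows in all since LFNG has 2. Besides HES1, each LFNG window held 1 match, and the windows of NOTCH2, NOTCH3, JAG2, DLL4 and NRARP held 0. Of all 35116 RefSeq windows of this length, 24.0% held at least 1 match on either strand and 3.8% held at least 2. The N box, CACNAG or its reverse complement CTNGTG, is the letter pattern bound by HES repressors, and HES1 is known to repress its own gene. It occurred 4 times in the HES1 window, while 0.293% of all windows held 4 or more and 38.0% held any. The AP-1 pattern TGANTCA, which is its own reverse complement, occurred in none of the 10 windows and in 7.71% of all windows. In the HES1 window the N box and RBPJ matches shared no bases, and a match to letters is not a binding site.

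NOTCH1 was far lower with eliglustat, JAG1, HES1 and LFNG were far higher at 30 µM, and HEY1 was lower at 20 µM alone. On the log2 scale 30 µM against control gave -2.71 for NOTCH1, 2.82 for JAG1, 2.42 for LFNG and 3.08 for HES1. For HEY1, 20 µM against control gave -1.29 and 30 µM against control -0.09.

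**Figure D1:**
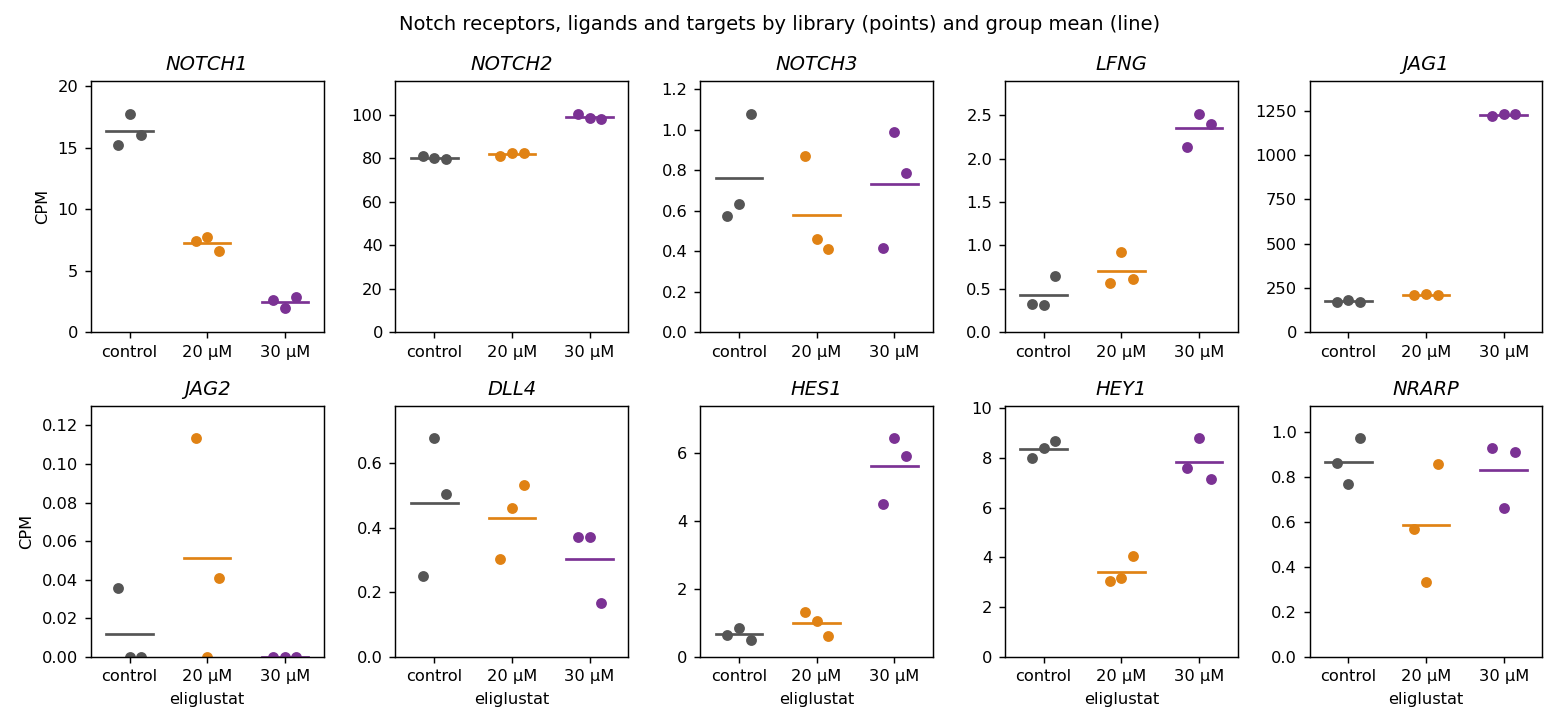
Level of each of the 10 genes in CPM (linear axes that start at 0, scaled to each gene) in control, 20 µM and 30 µM libraries; points are libraries and lines are group means, n = 3. NOTCH1 steps down with dose, HEY1 is low at 20 µM, and JAG1, LFNG and HES1 stand apart at 30 µM, while the NOTCH3, DLL4 and NRARP groups overlap.

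NOTCH1 (chr9:136494433-136545786, minus strand, GRCh38) encodes the receptor best known from T-cell development and leukaemia. Its level was 15.2, 17.8 and 16.0 CPM in the control libraries, 7.44, 7.77 and 6.61 CPM at 20 µM and 2.64, 1.94 and 2.89 CPM at 30 µM. No library of any group overlapped another group, and the dose order held in all 9. NOTCH1 averaged 2.49 ± 0.493 CPM at 30 µM and 16.3 ± 1.30 CPM in controls (SD, n = 3 each), a log2 change of -2.71 ± 0.131 (SE), or 6.55-fold lower. That change had rank 42 from the lowest among the 17623 genes. At 20 µM the mean was 7.27 ± 0.596 CPM (SD, n = 3), a log2 change against control of -1.16 ± 0.112, or 2.24-fold lower, with rank 60 from the lowest. Between the doses, 30 µM against 20 µM, the log2 change was -1.55 ± 0.140. These values rest on 394 to 446 counts per control library, 162 to 197 at 20 µM and 47 to 70 at 30 µM.

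NOTCH2 (chr1:119911553-120069626, minus strand) is the receptor that acts with JAG1 in bile duct formation. It was at 81.1, 79.9 and 79.4 CPM in controls, 81.1, 82.1 and 82.5 CPM at 20 µM and 100.4, 98.4 and 98.2 CPM at 30 µM. The 30 µM libraries all lay above the other 6. The log2 change against control was 0.30 ± 0.04 at 30 µM and 0.03 ± 0.0402 at 20 µM, and between the doses (30 µM over 20 µM) it was 0.27 ± 0.04. Scaled by library size alone, the change was 0.09 at 30 µM over control and 0.08 between the doses. Part of NOTCH2 has near-identical copies, the NOTCH2NL genes, whose reads the counting may share with NOTCH2. NOTCH2NLC was the highest of these, with 2.702 ± 0.668 CPM at 30 µM and 2.90 ± 0.640 CPM in controls (SD, n = 3 each). Its level was small beside NOTCH2, but reads discarded as not unique cannot be assigned, and their share of records was 12.4% to 12.8% in controls, 13.3% to 15.5% at 20 µM and 14.8% to 19.4% at 30 µM. The part of that share in the NOTCH2 difference was not tested.

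NOTCH3 (chr19:15159038-15200981, minus strand), a receptor best known from vascular smooth muscle, was near the lower limit of detection. It had 0.574, 0.631 and 1.08 CPM in controls, 0.868, 0.459 and 0.408 CPM at 20 µM and 0.417, 0.990 and 0.785 CPM at 30 µM, from 9 to 30 counts per library. The 3 groups overlapped. The log2 change against control was -0.06 ± 0.392 at 30 µM and -0.39 ± 0.400 at 20 µM, and between the doses it was 0.33 ± 0.407.

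The make-up of the receptors differed more than their total. Levels per kilobase of exon, which allow genes of different length to be set beside each other, placed NOTCH1 at 24.5 ± 1.58% of the 3 receptors in controls, 12.4 ± 0.922% at 20 µM and 3.86 ± 0.745% at 30 µM (mean ± SD, n = 3 each). NOTCH2 made up 74.3% in controls, 86.5% at 20 µM and 94.9% at 30 µM. The sum of the 3 receptors was 6.42 ± 0.0968 CPM per kb in controls, 5.64 ± 0.0474 CPM per kb at 20 µM and 6.21 ± 0.0613 CPM per kb at 30 µM (mean ± SD, n = 3 each).

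LFNG (chr7:2512529-2529177, plus strand), lunatic fringe, adds N-acetylglucosamine to fucose on the receptors' EGF repeats and so alters how they respond to Jagged and Delta-like ligands. It was at 0.323, 0.316 and 0.647 CPM in controls, 0.566, 0.919 and 0.612 CPM at 20 µM and 2.13, 2.52 and 2.39 CPM at 30 µM. The 30 µM libraries lay above all others, and the 20 µM libraries overlapped those of controls. The log2 change at 30 µM against control was 2.42 ± 0.321, or 5.36-fold higher, with rank 262 from the highest. The 20 µM libraries gave 0.68 ± 0.363 against control, and the change between the doses was 1.75 ± 0.302. The counts behind these values were 7 to 18 per control library, 15 to 22 at 20 µM and 46 to 61 at 30 µM, and only the 2 eliglustat groups had all 3 libraries over the level of the low-count filter.

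JAG1 (chr20:10637684-10673999, minus strand), the Jagged ligand mutated in most Alagille syndrome families, was the most abundant of the 10 genes per kilobase in every group. Its level was 169.5, 180.3 and 172.6 CPM in controls, 208.8, 214.2 and 212.3 CPM at 20 µM and 1219.7, 1233 and 1231 CPM at 30 µM. No groups overlapped, and the 30 µM libraries lay far above the rest. JAG1 averaged 1228 ± 7.23 CPM at 30 µM and 174.1 ± 5.55 CPM in controls (SD, n = 3 each), a log2 change of 2.82 ± 0.0334, or 7.05-fold higher, with rank 192 from the highest. With 20 µM the log2 change against control was 0.28 ± 0.0323, or 1.22-fold higher, and between the doses it was 2.54 ± 0.0329, or 5.80-fold higher. Most of the difference lay between the doses. Among all genes ordered by CPM, JAG1 stood at place 999 to 1085 in controls, 758 to 768 at 20 µM and 57 to 59 at 30 µM. An antisense gene inside JAG1 was at 0.783 ± 0.311 CPM at 30 µM and 0.344 ± 0.0757 CPM in controls (SD, n = 3 each). The sources used here do not say whether the counting used strand, so reads of that gene cannot be told apart from JAG1 reads on the other strand.

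JAG2 and DLL4, the other ligands of the set, were barely detected. JAG2 (chr14:105140981-105168824, minus strand), a Jagged ligand, had 5 counts over all 9 libraries, of which at most 1 fell in a control library, 3 in a 20 µM library and 0 in a 30 µM library. It was not tested, and 3 counts, the limit that a count of 0 allows, correspond to 0.108 to 0.139 CPM per library, counting error only. DLL4 (chr15:40929333-40939073, plus strand), the Delta-like ligand of endothelial cells, had 0.251, 0.676 and 0.503 CPM in controls, 0.302, 0.459 and 0.531 CPM at 20 µM and 0.370, 0.371 and 0.165 CPM at 30 µM, from 4 to 15 counts per library. The groups overlapped, and the log2 change against control was -0.63 ± 0.504 at 30 µM and -0.13 ± 0.473 at 20 µM, with -0.51 ± 0.512 between the doses. Differences of DLL4 and NOTCH3 were not detectable at this depth.

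HES1 (chr3:194136145-194138732, plus strand), a repressor of the basic helix-loop-helix family and a classical Notch target that other signals also induce, was scarce in controls. It was at 0.646, 0.856 and 0.503 CPM in controls, 1.32, 1.04 and 0.612 CPM at 20 µM and 4.49, 6.43 and 5.90 CPM at 30 µM. Every 30 µM library lay above every other library, and the 20 µM libraries overlapped those of controls. HES1 averaged 5.61 ± 1.00 CPM at 30 µM and 0.668 ± 0.178 CPM in controls (SD, n = 3 each), a log2 change of 3.08 ± 0.255, or 8.48-fold higher, with rank 146 from the highest. The 20 µM libraries gave 0.60 ± 0.301 against control, and the change between the doses was 2.49 ± 0.240, or 5.61-fold higher. The counts were 14 to 19 per control library, 15 to 35 at 20 µM and 97 to 156 at 30 µM. Its start region, printed with those of NOTCH1 and JAG1, is the one that holds a pair of RBPJ core matches. The part of these matches in the HES1 difference was not tested.

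HEY1 (chromosome 8, minus strand), a related repressor and Notch target of heart and vessels, gave another order of the groups. Its level was 7.998, 8.38 and 8.70 CPM in controls, 3.06, 3.17 and 4.04 CPM at 20 µM and 7.59, 8.79 and 7.14 CPM at 30 µM. All 20 µM libraries lay below all others, while the 30 µM and control libraries overlapped. The log2 change was -1.29 ± 0.134 at 20 µM against control, or 2.44-fold lower, with rank 38 from the lowest of the 17623 genes. Between the doses it was 1.20 ± 0.136, or 2.29-fold higher, and 30 µM over control gave -0.09 ± 0.123. With library size alone the value for 30 µM over control became -0.30 and passed the threshold.

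NRARP (chr9:137300482-137302251, minus strand), a small ankyrin-repeat protein that is induced by Notch and dampens it, had 0.861, 0.766 and 0.970 CPM in controls, 0.566, 0.334 and 0.857 CPM at 20 µM and 0.926, 0.660 and 0.908 CPM at 30 µM. The groups overlapped, on 8 to 27 counts per library. The log2 change against control was -0.07 ± 0.351 at 30 µM and -0.56 ± 0.364 at 20 µM, with 0.50 ± 0.371 between the doses. Of the 3 targets, HES1 was therefore highest at 30 µM, HEY1 lowest at 20 µM, and the NRARP groups could not be told apart at this depth.

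**Figure D2:**
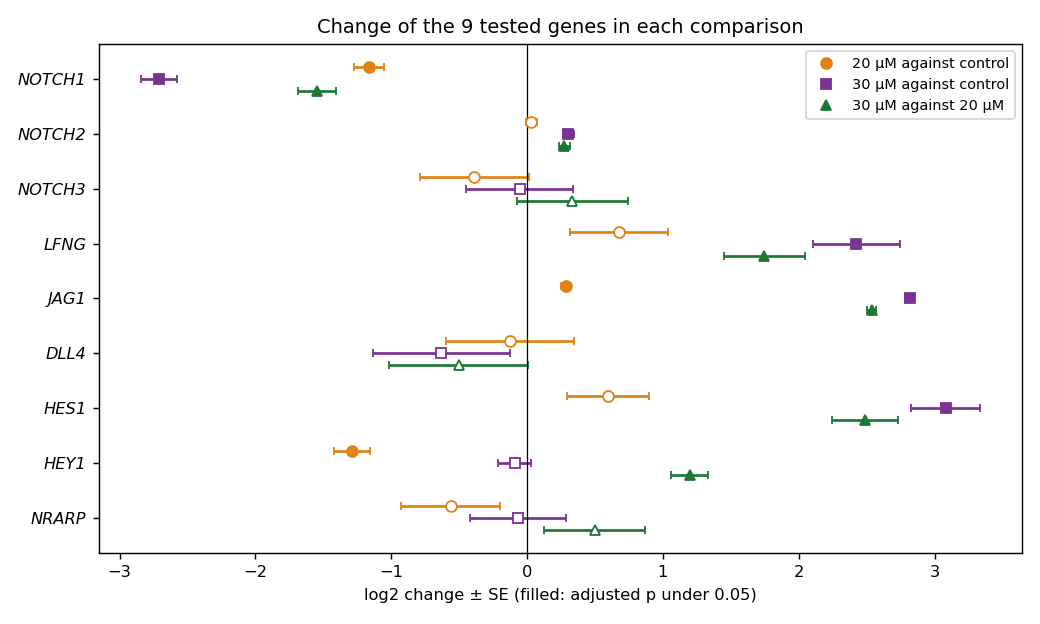
Log2 change ± SE (x axis, zero line drawn) of the 9 tested genes for 20 µM against control, 30 µM against control and 30 µM against 20 µM, from edgeR over 9 libraries; filled symbols have an adjusted p under 0.05. NOTCH1 lies left of 0 in every comparison at -1.16, -2.71 and -1.55, JAG1 lies right of 0 in each, and HEY1 lies at -1.29 for 20 µM against control and at 1.20 between the doses.

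Of the 10 genes, 9 had enough counts to be tested. At 30 µM against control 5 passed the threshold (adjusted p under 0.05, edgeR quasi-likelihood with Benjamini-Hochberg adjustment over all genes), where 60.8% of all tested genes did. NOTCH2, JAG1, LFNG and HES1 were higher and NOTCH1 lower, while 29.5% of tested genes passed as higher and 31.3% as lower. The comparison of 20 µM with control had 3 that passed, where 34.2% of all tested genes did: JAG1 was higher and NOTCH1 and HEY1 were lower, beside 17.2% and 16.9% of all tested genes. Between the doses 6 passed, where 57.0% of all tested genes did, with NOTCH2, JAG1, LFNG, HES1 and HEY1 higher and NOTCH1 lower, beside 28.0% and 28.9%. Groups without overlap between their libraries were found for these same 5, 3 and 6 genes, beside 65.0%, 44.5% and 61.1% of all tested genes. The median log2 change of the 9 was -0.06 for 30 µM over control, -0.13 for 20 µM over control and 0.50 between the doses, beside -0.04, 0.01 and -0.03 over all tested genes. Since the genes were proposed from these contrasts, nothing is read from these counts. The comparisons share control or 20 µM libraries.

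In controls the order of the levels per kilobase was JAG1 at 18.7 CPM per kb, NOTCH2 at 4.77, HEY1 at 2.59, NOTCH1 at 1.57, NRARP at 0.489, HES1 at 0.324, LFNG at 0.125, DLL4 at 0.100 and NOTCH3 at 0.0810 CPM per kb, with JAG2 last. The libraries overlapped between LFNG and DLL4 and between DLL4 and NOTCH3, and other neighbours did not overlap. At 20 µM, NOTCH1 at 0.701, HES1 at 0.481, NRARP at 0.331 and LFNG at 0.205 CPM per kb formed a run in which each neighbour overlapped the next. At 30 µM, JAG1 was at 132.1 CPM per kb and NOTCH2 at 5.89, and HES1 at 2.72 and HEY1 at 2.43 CPM per kb overlapped. NOTCH1, in place 4 in controls, stood at 0.240 CPM per kb at 30 µM, below LFNG at 0.687 and NRARP at 0.470 CPM per kb. The order depends on the exon lengths used.

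The ratio of ligand to receptor and the ratio between the targets followed from these levels. JAG1 per kilobase was 2.92 ± 0.0494 times the sum of the 3 receptors in controls, 4.04 ± 0.0495 times at 20 µM and 21.3 ± 0.330 times at 30 µM (mean ± SD, n = 3 each). JAG1 over NOTCH1 was 11.9 ± 0.561 in controls, 32.6 ± 2.78 at 20 µM and 567.1 ± 125.3 at 30 µM. HES1 over HEY1 was 0.126 ± 0.0347 in controls, 0.477 ± 0.222 at 20 µM and 1.12 ± 0.185 at 30 µM. The 3 groups did not overlap in any of the 3 ratios, which are descriptions of the same values.

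**Figure D3:**
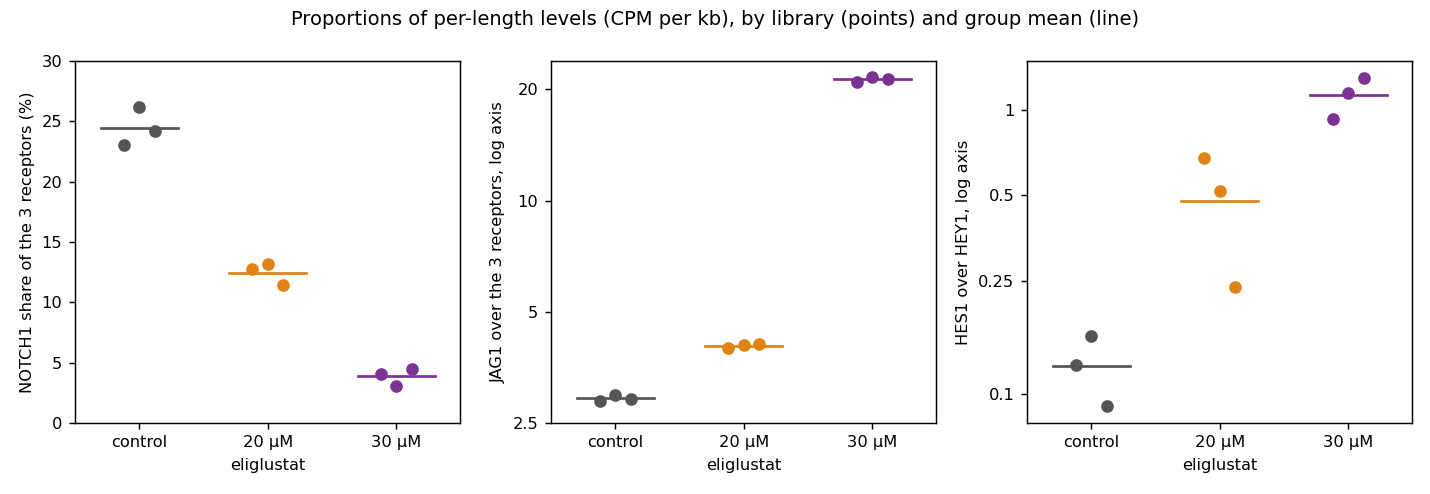
NOTCH1 as a percentage of the 3 receptors (left, linear axis from 0), JAG1 over the 3 receptors (middle, log axis) and HES1 over HEY1 (right, log axis), all from CPM per kb, in control, 20 µM and 30 µM libraries; points are libraries and lines are group means. The NOTCH1 share is 23.1% to 26.2% in controls and 3.04% to 4.49% at 30 µM, and both ratios are highest at 30 µM.

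Genes whose profile over the 9 libraries came nearest were sought among protein-coding genes with a mean of at least 5 CPM, by the root mean square difference of log2 CPM centred per gene. Nearest to NOTCH1 among 10137 genes were TERT, the catalytic subunit of telomerase, at 0.261, and the histone genes H1-5 at 0.267 and H2AC16 at 0.271. TERT averaged 13.4 CPM in controls, 6.73 CPM at 20 µM and 2.76 CPM at 30 µM. Nearest to HES1 among 10138 genes were S100A11, a calcium-binding protein, at 0.273, PLK3, a polo-like kinase of the stress response, at 0.303 and RAB3B, a small GTPase of vesicle transport, at 0.314. PLK3 averaged 8.75 CPM in controls, 11.7 CPM at 20 µM and 56.0 CPM at 30 µM. The likeness is a description of these libraries.

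Other genes of the pathway were looked at across all steps of the signal. The 67 genes in 7 lists were taken from general knowledge of the pathway, with earlier results of these data known. Of these genes, 54 were tested. The log2 change stayed within 0.5 of 0 for 40 of them at 30 µM over control, 51 at 20 µM over control and 43 between the doses. In the first comparison 22 rose and 10 fell, 59.3% of the 54 beside the background of 60.8%. With 20 µM against control 17 rose and 6 fell, 42.6% beside 34.2%, and between the doses 21 rose and 10 fell, 57.4% beside 57.0%. The median changes were 0.09, 0.05 and 0.05. The split depended on the scaling, since library size alone gave 15 higher and 24 lower for 30 µM over control and 11 higher and 23 lower between the doses. Library size alone shifts the median of all tested genes by -0.21 and -0.19 in these comparisons. Of all 17623 tested genes, it gave 3530 higher and 8022 lower for 30 µM over control. Between the doses it gave 3029 higher and 7690 lower. Without the 3 libraries that deviated together (control 1, 20 µM 3 and 30 µM 3), 20 µM against control gave 11 higher and 8 lower.

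Of 5 further receptors and ligands, 3 were tested. DLK1, a non-canonical ligand of fetal liver, fell slightly at 30 µM (log2 -0.17 ± 0.0373, adjusted p = 0.000214) and rose at 20 µM (0.12 ± 0.0371, adjusted p = 0.013) against control in edgeR's test. NOTCH4, the endothelial receptor, named after its values were seen, was the other one that rose at 20 µM, to 0.867 ± 0.0726 CPM against 0.407 ± 0.0821 CPM in controls (SD, n = 3 each; edgeR adjusted p = 0.0257). Both calls at 20 µM were fragile: that of DLK1 was lost without 20 µM 2 (adjusted p = 0.0633) or 20 µM 3 (adjusted p = 0.0851), and that of NOTCH4 with DESeq2 (adjusted p = 0.0563), without control 2 or 3 (adjusted p = 0.0821 and 0.094) and without 20 µM 1 or 3 (adjusted p = 0.0592 and 0.0779).

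Among 9 genes of receptor glycosylation and maturation, 2 rose and 2 fell at 30 µM, where 60.8% of all tested genes passed. With library size alone 5 more passed as lower, namely MFNG, RFNG, GXYLT1, POGLUT1 and XXYLT1, where 8022 of 17623 tested genes did. RFNG passed as higher with median-ratio scaling (adjusted p = 0.0323), with only the groups compared (adjusted p = 0.0293) and without 30 µM 2 (adjusted p = 0.034). FURIN, the protease that cuts the receptor precursor in the secretory pathway, averaged 199.5 ± 5.37 CPM at 30 µM and 101.6 ± 5.61 CPM in controls (SD, n = 3 each; log2 0.97 ± 0.0422, edgeR adjusted p = 7.45e-20). EOGT, an O-GlcNAc transferase, rose (0.37), while the xylosyltransferase GXYLT2 (-0.35) and the protein O-fucosyltransferase POFUT1 (-0.24) fell. At 20 µM against control MFNG, manic fringe, fell (-0.35, edgeR adjusted p = 0.000986) and RFNG, radical fringe, rose (0.21, edgeR adjusted p = 0.000375), so the 3 fringe genes did not share a direction. GXYLT2 rose at 20 µM (0.20), a call lost without control 3 (adjusted p = 0.0854) or 20 µM 1 (adjusted p = 0.061), and POFUT1 fell (-0.17).

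Of the 8 genes of receptor cleavage, 5 rose and 1 fell at 30 µM against control, where 29.5% of all tested genes rose and 31.3% fell, with a median log2 change of 0.51 beside -0.04 over all genes. ADAM17, a membrane sheddase, rose (0.57 ± 0.0429, edgeR adjusted p = 1.57e-13), and so did ADAM10, the main ligand-dependent sheddase (0.29 ± 0.0373, edgeR adjusted p = 3.55e-08), although with library size alone ADAM10 was at 0.08 (adjusted p = 0.0695). The subunit PSENEN (0.52, adjusted p = 0.0398) and PSEN2 (0.49, adjusted p = 0.0202) were scarce, and their calls were lost with library size alone. Without single libraries, PSEN2 gave adjusted p = 0.0501 (control 2), 0.0623 (control 3) and 0.142 (30 µM 1), and PSENEN gave 0.178 (control 2), 0.155 (control 3), 0.0745 (30 µM 2) and 0.191 (30 µM 3). The PSENEN call was also lost with DESeq2 (adjusted p = 0.0557) and with limma voom (adjusted p = 0.0553). The subunit APH1A, named after its values were seen, was the member that fell (-0.14), and nicastrin, NCSTN, did not pass (0.01 ± 0.04, edgeR adjusted p = 0.854), although with library size alone NCSTN passed as lower (-0.20, adjusted p = 4.57e-05). With 20 µM, ADAM10 (0.11) and APH1B (1.16) were among those that rose against control, and the APH1B call was lost without control 2 (adjusted p = 0.0644) or without 20 µM 3 (adjusted p = 0.0816). APH1B was scarce, at 0.575 CPM in controls and 1.31 CPM at 20 µM on average, with at most 42 counts per library. The ADAM10 call at 20 µM was lost without control 1 (adjusted p = 0.126), 20 µM 1 (adjusted p = 0.103) or 20 µM 3 (adjusted p = 0.067).

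Of 13 tested genes of endocytosis and ubiquitination, 7 rose and 2 fell at 30 µM, where 29.5% of all tested genes rose and 31.3% fell. With library size alone NUMB and DTX3 no longer passed, and EPN1 and MIB2 passed as lower. AAK1, a kinase of the clathrin adaptor, averaged 161.8 ± 5.53 CPM at 30 µM and 70.4 ± 4.14 CPM in controls (SD, n = 3 each; log2 1.20 ± 0.0446, edgeR adjusted p = 9.74e-22). DTX4, a Deltex ubiquitin ligase, fell to 16.1 ± 1.18 CPM at 30 µM, against 41.7 ± 0.134 CPM in controls (SD, n = 3 each; log2 -1.38 ± 0.07, edgeR adjusted p = 4.85e-18). FBXW7, which targets the cleaved receptor for degradation, rose (0.58), and DTX3L fell (-0.50). With 20 µM, DTX3L (-0.36) and DTX4 (-0.31) fell against control, and DTX3 (0.32) and MIB1, the ligase that drives ligand endocytosis (0.26), rose. The DTX3 call was lost without the 3 libraries that deviated together (0.24, adjusted p = 0.0955).

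RBPJ, the DNA-binding partner of the cleaved receptor, averaged 75.6 ± 2.18 CPM in controls, 74.1 ± 2.15 CPM at 20 µM and 80.8 ± 4.99 CPM at 30 µM (mean ± SD, n = 3 each). Its log2 change did not pass at 30 µM against control (0.09 ± 0.0466, edgeR adjusted p = 0.0821), nor did it at 20 µM against control (-0.03 ± 0.0466, edgeR adjusted p = 0.675). The 30 µM value depended on the setting: RBPJ passed as higher with median-ratio scaling (adjusted p = 0.0307), with only the groups compared (adjusted p = 0.0355) and without 30 µM 3 (adjusted p = 0.0105), and passed as lower with library size alone (-0.12, adjusted p = 0.0337). At 30 µM against 20 µM it was 0.12 (edgeR adjusted p = 0.0234), and this turned to -0.07 with library size alone. The call between the doses was also lost with upper-quartile scaling (0.05, adjusted p = 0.406) and without 20 µM 2 (adjusted p = 0.0925), 30 µM 1 (adjusted p = 0.144) or 30 µM 2 (adjusted p = 0.0962). Of the 7 tested genes of the activating complex, 4 rose at 30 µM against control and none fell, where 29.5% of all tested genes rose and 31.3% fell: the acetyltransferases KAT2B (1.19 ± 0.213, edgeR adjusted p = 1.06e-05), EP300 (0.36) and CREBBP (0.15), and the coactivator MAML2 (0.36). With library size alone MAML2 no longer passed, CREBBP turned to -0.06, and MAML1 (-0.15, adjusted p = 0.00173), like RBPJ, passed as lower. KAT2B (0.91) and MAML2 (0.39) also rose at 20 µM against control, and SNW1, a nuclear coactivator, fell (-0.22), though not without control 1 (adjusted p = 0.0597).

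Of 12 tested corepressors, 3 rose and 3 fell with 30 µM, where 60.8% of all tested genes passed. With library size alone NCOR1 (-0.25), CTBP1 (-0.22) and TLE3 (-0.12) passed as lower as well, where 8022 of 17623 tested genes did. TLE3 passed as higher with median-ratio scaling (0.11, adjusted p = 0.0307), with DESeq2 (adjusted p = 0.0487) and with only the groups compared (adjusted p = 0.027). TLE1, a Groucho corepressor of HES proteins, averaged 94.0 ± 3.08 CPM at 30 µM and 49.3 ± 3.11 CPM in controls (SD, n = 3 each; log2 0.93 ± 0.0493, edgeR adjusted p = 1.64e-17). The demethylase KDM5A (0.39) and SPEN, which binds RBPJ (0.38), rose, and the deacetylase HDAC1 fell (-0.22), as did RITA1 (-0.18), named after its values were seen. In the 20 µM libraries HDAC1 fell (-0.23), and TLE3 (0.22), TLE1 (0.19) and KDM5A (0.13) rose.

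HES4 and HES6 were the only tested genes among 7 further HES and HEY family members. HES4, a repressor of the family, averaged 15.5 ± 1.98 CPM at 30 µM and 8.67 ± 1.08 CPM in controls (SD, n = 3 each; log2 0.84 ± 0.107, edgeR adjusted p = 2.73e-08). HES6, which opposes HES1 in neural cells of the mouse, fell to 49.5 ± 2.85 CPM at 30 µM, against 70.6 ± 6.69 CPM in controls (SD, n = 3 each; log2 -0.51 ± 0.0705, edgeR adjusted p = 9.61e-06). Neither passed at 20 µM against control, where HES6 was at 0.15 and HES4 at -0.20. HES6 did pass there with the replicate block (0.15, adjusted p = 0.0112), with no low-count filter (adjusted p = 0.0138) and without control 3 (0.20, adjusted p = 0.0297), and HES4 passed as lower without the 3 libraries that deviated together (-0.34, adjusted p = 0.0355).

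**Figure D4:**
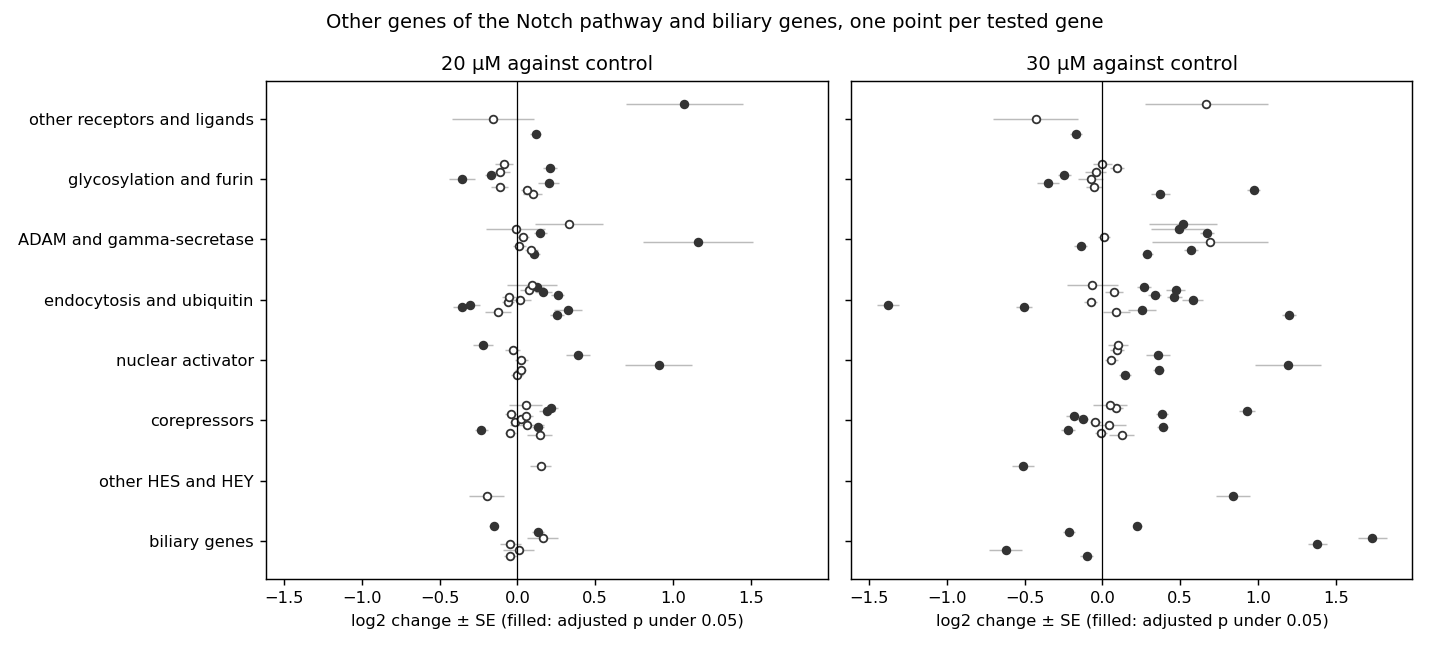
Log2 change ± SE (x axis) of each tested gene of the 7 pathway lists and the biliary list, for 20 µM against control (left) and 30 µM against control (right); 1 point per gene, filled where the edgeR adjusted p is under 0.05. Most points lie within 0.5 of 0, and AAK1 at 1.20, DTX4 at -1.38 and SOX4 at 1.74 are among those farthest out at 30 µM.

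Biliary genes, which Notch signalling governs in developing liver, split in direction. Of 9 genes, 6 were tested, and at 30 µM against control 3 rose and 3 fell, so that all 6 passed, beside 60.8% of all genes. SOX4, a transcription factor of bile duct development, averaged 26.4 ± 0.839 CPM at 30 µM and 7.95 ± 0.935 CPM in controls (SD, n = 3 each; log2 1.74 ± 0.0935, edgeR adjusted p = 2.43e-17). KRT19, the bile duct keratin, averaged 53.9 ± 2.35 CPM at 30 µM and 20.7 ± 1.19 CPM in controls (SD, n = 3 each; log2 1.38 ± 0.0615, edgeR adjusted p = 1.37e-19). SOX9, a Notch-responsive factor of biliary cells, fell at 30 µM (-0.21) and rose at 20 µM (0.13) against control. EPCAM, an epithelial surface protein named after its values were seen, also fell (-0.10), and its call was lost with DESeq2 (adjusted p = 0.152) and when any of 4 single libraries was left out (adjusted p from 0.0643 to 0.135). SPP1, osteopontin, rose at 30 µM (0.22) and fell at 20 µM (-0.15), and with library size alone the value at 30 µM was 0.01 (adjusted p = 0.657).

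Markers of other cells were low. The summed level of 7 endothelial markers was 5.77 to 6.58 CPM in controls, 5.51 to 7.51 CPM at 20 µM and 6.65 to 7.87 CPM at 30 µM. That of 7 fibroblast markers was 33.9 to 40.8 CPM in controls, 34.5 to 36.5 CPM at 20 µM and 23.3 to 25.9 CPM at 30 µM, and that of 6 leukocyte markers was 1.33 to 2.03 CPM in controls, 1.31 to 1.84 CPM at 20 µM and 1.44 to 1.78 CPM at 30 µM. The endothelial sum hides movement in both directions. All 5 tested markers passed at 30 µM against control, where 60.8% of all tested genes did. VWF (2.57), ROBO4 (2.42) and TIE1 (0.70) passed as higher and PECAM1 (-1.21) and CDH5 (-0.55) as lower. These genes were scarce. VWF averaged 1.85 CPM at 30 µM and 0.306 CPM in controls, with at most 52 counts per library. ROBO4 averaged 1.19 CPM at 30 µM and 0.216 CPM in controls, with at most 30 counts. The fibroblast sum was carried by ACTA2, at 21.5 CPM at 30 µM and 36.0 CPM in controls on average, while PDGFRB rose (1.82). No count fell on 2 of the endothelial, 3 of the fibroblast and 2 of the leukocyte markers in the 30 µM libraries, or on 1, 3 and 2 of them in controls. The part of these markers in the results was not tested.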

How the data were processed

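RNA was measured in 9 libraries of HepG2 cells, 3 each of control, 20 µM and 30 µM eliglustat. The authors deposited counts of reads per gene, made with FastQC, STAR 2.7.10a and HTSeq on hg38, per the submitters' processing notes. Neither the strand option of the counting nor the gene annotation used for it is given in the sources used here. The labels name polyA RNA, while the protocol describes ribosomal depletion of total RNA and an extraction kit for fixed tissue. The 5 HTSeq total rows of each file (40.6% to 44.0% of records) stayed out of genes and library sizes.

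Of 62703 identifiers, 62686 had a symbol and 58264 a position and exon length in GENCODE 29. After the filterByExpr filter and TMM scaling, edgeR 4.0.16 (R 4.3.3) was used for robust quasi-likelihood tests with 1 mean for each group in a joint fit of 9 libraries, with Benjamini-Hochberg adjustment over 17623 genes and a threshold of 0.05. SEs of log2 changes were taken as their size over the square root of F. The biological coefficient of variation was 0.0529. Libraries within a group differed by more than sampling noise, with a chi-square per gene of 2.06 to 7.74. The test was also run on data simulated from its own fitted model with 200 genes changed. Far more genes passed in the real data, so that run cannot judge the scaling or the error rates here.

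The members and the lists were chosen with earlier results of these data known. All 10 members were named. From each pathway list and the biliary list, the rule took in each comparison up to 4 genes with adjusted p under 0.05, a mean of at least 1 CPM in the higher group and the largest changes, plus RBPJ, ADAM10 and NCSTN whatever their result. Some items the rule took are withheld and not reported here. The text gives those against control. Marker genes, and list genes named only for a call that a setting changed, were chosen after their values were seen. All 114 symbols were matched. Promoter windows come from RefSeq (GRCh38.p14). Reads, splicing and protein sequences were not analysed here.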

Additional observations from a re-analysis of the deposited data

How the results depend on the processing

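Alternatives were median-ratio, upper-quartile and library-size scaling, DESeq2 1.42.0, limma voom 3.58.1, no low-count filter, at least 50 counts per library on average, a replicate block, no robust fit, only the groups compared, and each library left out. A fit without control 1, 20 µM 3 and 30 µM 3 was chosen after seeing the data. All 153 recomputed counts of genes past the threshold stayed within 1.5 times the reported ones: 4 to 6 of the Notch genes at 30 µM against control, 3 to 4 at 20 µM against control and 5 to 6 at 30 µM against 20 µM. Of the Notch genes, 9 were tested in the main fit and 10 with no low-count filter. With at least 50 counts per library on average, 5 were tested, and this fit gave the 4 at 30 µM against control. The other pathway genes gave 30 to 39, 19 to 24 and 25 to 34, and the biliary genes 5 to 6, 2 and 5 to 6. In the main fit 60.8%, 34.2% and 57.0% of all tested genes passed in these comparisons. Of 444 recomputed log2 changes of the Notch genes, 434 kept direction and side of the threshold. LFNG at 20 µM against control passed without control 3 (log2 change 1.11) and HES1 without 20 µM 3 (0.84). NOTCH2 at 30 µM against 20 µM no longer passed with library size alone (0.08), and HEY1 at 30 µM against control passed (-0.30). Changes that did not pass turned direction when single libraries were left out: NOTCH3 at 30 µM against control ranged from -0.34 to 0.29, NRARP at 30 µM against control from -0.15 to 0.08 (0.0753 without 30 µM 2) and DLL4 at 20 µM against control from -0.44 to 0.18. The cause was not tested. The groups share replicate numbers, and deviations of same-numbered libraries correlated at -0.202 to 0.352. Between 20 µM and 30 µM, same-numbered libraries gave 0.077 to 0.352 and different-numbered ones -0.256 to 0.137. Deviations within a group of 3 depend on each other, so these values cannot decide whether the numbers pair the samples. With the replicate block, 5, 3 and 6 of the Notch genes passed at 30 µM against control, 20 µM against control and 30 µM against 20 µM, with 32, 24 and 31 of the other pathway genes and 6, 2 and 5 of the biliary genes. Of all 17623 tested genes, the block gave 5155 higher and 5480 lower, 2997 and 2955, and 4921 and 5034 in these comparisons. Control 1, 20 µM 3 and 30 µM 3 correlated with each other at 0.331 to 0.352. For NOTCH3, DLL4 and NRARP, with 30 counts or fewer per library, the SE was 0.351 to 0.512 log2 units.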
